A study of Mus musculus with 24 samples.

Results

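The stromal and extracellular matrix genes described here are 39 of 18193 genes measured on Affymetrix expression arrays of cultured mouse bone marrow-derived macrophages. They were taken by symbol from a list of 40 genes for collagens, matrix glycoproteins and proteoglycans, collagen-processing enzymes, matrix proteases and their inhibitors, stromal surface proteins, contractile proteins and secreted factors. Fbn1 was not analysed here, and the listed Ctgf was found under its current symbol, Ccn2. Each gene is represented by the probe set with a single gene symbol that had the highest mean log2 value over the 24 arrays.

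Cells came from male mice of 4 strains, all carrying the Il10 null allele Il10tm1Cgn. CB-R1 has the C3Bir background with a chromosome 3 segment of B6 that includes Cdcs1, a locus for colitis susceptibility in Il10-deficient mice. C3Bir is C3H/HeJBir-Il10tm1Cgn, BC-R3 carries the Cdcs1 region of C3Bir on a B6 background, and B6 is C57BL/6J-Il10tm1Cgn. In each strain 3 arrays held RNA of cells given the bacterial protein Cbir flagellin at 1 µg/mL for 4 hours at the end of a 6-day culture, and 3 held RNA of unstimulated cells. The medium named in the labels is RPMI1640 with fetal calf serum, and RNA of 3 wells was pooled for each sample. The labels do not tie array numbers to the 3 mice of a genotype, and each donor's cells were split between the conditions, so the p-values reflect only how far these arrays scatter.

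The extracellular matrix is a network of collagen fibrils, sheet-forming and microfibrillar collagens, glycoproteins such as fibronectin, and proteoglycans. Fibroblasts and other stromal cells make most of it, hydroxylate and cross-link the collagen, and remodel it with matrix metalloproteinases, which the TIMP proteins inhibit. Bone marrow holds stromal cells beside the precursors of macrophages, and macrophages themselves are known to secrete fibronectin, metalloproteinases and TIMPs. In RNA of a whole culture, fewer cells of a type and less RNA per cell cannot be told apart.

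Promoter sequence was available for 23 of the 39 genes. The 250 bases before the annotated start of 4 genes are shown because results given later turn on these genes. Postn and Col3a1 differed in opposite directions between the averages of the genetic backgrounds, for Col3a1 through CB-R1, and the inhibitor genes Timp1 and Timp2 varied in opposite directions between replicate arrays. They are from RefSeq (GRCm38.p6), 5′ to 3′ on the gene's strand, and capitals mark matches on either strand. The motifs searched were CCAAT, bound by NF-Y, then the TATA box as TATAAA, the Sp1 core GGGCGG and the AP-1 site TGAGTCA, and no matches overlapped. The Postn window lies at chr3:54360857-54361106 (plus strand, the second of its 2 starts in the table), that of Col3a1 at chr1:45311288-45311537 (plus), that of Timp1 at chrX:20869916-20870165 (plus) and that of Timp2 at chr11:118355412-118355661 (minus).
Postn: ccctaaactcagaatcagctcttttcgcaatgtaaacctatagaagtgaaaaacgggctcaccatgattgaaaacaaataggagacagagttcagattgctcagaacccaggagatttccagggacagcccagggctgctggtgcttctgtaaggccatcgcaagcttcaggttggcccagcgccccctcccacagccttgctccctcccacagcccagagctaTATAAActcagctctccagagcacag
Col3a1: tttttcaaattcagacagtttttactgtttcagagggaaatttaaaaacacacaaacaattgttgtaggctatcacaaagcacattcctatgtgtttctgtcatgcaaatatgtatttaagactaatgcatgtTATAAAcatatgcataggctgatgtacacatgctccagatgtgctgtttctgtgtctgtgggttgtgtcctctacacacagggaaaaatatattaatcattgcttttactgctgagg
Timp1: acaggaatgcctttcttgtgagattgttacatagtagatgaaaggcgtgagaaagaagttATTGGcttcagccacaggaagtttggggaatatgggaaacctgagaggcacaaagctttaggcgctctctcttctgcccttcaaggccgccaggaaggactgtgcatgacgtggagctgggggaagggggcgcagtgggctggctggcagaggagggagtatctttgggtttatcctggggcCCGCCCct
Timp2: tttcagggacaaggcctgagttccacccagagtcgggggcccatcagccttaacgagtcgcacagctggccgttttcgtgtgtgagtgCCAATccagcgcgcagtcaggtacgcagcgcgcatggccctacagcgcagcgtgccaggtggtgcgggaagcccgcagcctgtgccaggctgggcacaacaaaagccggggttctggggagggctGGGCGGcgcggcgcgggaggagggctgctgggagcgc
The window shown for Postn was picked from its 2 starts because it holds a TATAAA, so finding the motif there is no result. This TATAAA lies 26 bases before the start, and that of Col3a1 lies 117 bases before it. Both Timp windows hold a CCAAT and a GGGCGG and no TATAAA. Among the 23 members with a window, 3 held TATAAA, 7 held CCAAT, 14 held GGGCGG and 2 held TGAGTCA, which are 13%, 30.4%, 60.9% and 8.7% of them. The shares over all 27025 genes with a window of this length were 14.3%, 37.5%, 35.4% and 5.16%. The 3 members with TATAAA were Cald1, Col3a1 and Postn. Col4a1 and Col4a2, the basement membrane collagen pair, lie on opposite strands of chromosome 8. The Col4a1 start used, at 11312826, lies 21 bases from that of Col4a2, and their transcripts overlap between these starts. The annotated Col4a1 gene extends beyond this start, to 11312889.

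All 24 arrays carried macrophage RNA at high levels. The mean log2 value over 9 macrophage markers lay between 11.81 and 12.43, and Csf1r, the receptor for the macrophage growth factor, was never below 13.48. Array medians of all probe sets lay between 6.55 and 6.64 and lower quartiles between 5.29 and 5.42, and replicate arrays of a group correlated at 0.987 to 0.998. Several arrays stood apart in inflammatory genes. Over 19 cytokine and chemokine genes the mean reached 10.84 and 10.89 for unstimulated B6 (arrays 2 and 3) and 9.23 and 9.12 for unstimulated C3Bir (arrays 2 and 3). The remaining 20 arrays, flagellin arrays among them, lay between 7.31 and 8.93. Within B6 the flagellin arrays had 8.62, 8.14 and 7.997 and unstimulated array 1 had 8.90, and within C3Bir the flagellin arrays had 7.87, 7.90 and 7.82 and unstimulated array 1 had 7.64. Unstimulated arrays 2 and 3 of both strains were thus above every flagellin array of their strain. Unstimulated array 1 of B6 was as well. So was unstimulated array 1 of BC-R3, at 8.93 against 8.11, 8.06 and 8.55 on the BC-R3 flagellin arrays. Whether these arrays carry the right labels was not tested, and a mislabelled array would change what each flagellin change and each unstimulated strain comparison means. Groups are named as labelled, and results that rest on the 4 arrays with the highest cytokine mean are also given without them. That leaves 1 unstimulated array each of B6 and C3Bir, which is assumed to vary like the other groups. Unstimulated array 1 of B6 and of BC-R3 stays in these fits.

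Most of the stromal genes were readily measured. On every array 27 of the 39 were above the array's median, and 7 were above its upper quartile. Lum, Thy1 and Pdgfra were below the median on all 24 arrays. The mean over the 39 genes was 8.96, 8.66 and 8.71 in CB-R1 with flagellin and 9.10, 8.69 and 8.57 without it, against 7.69, 8.22 and 7.98 with flagellin and 7.59, 8.31 and 8.08 without it in C3Bir. It was 8.76, 8.70 and 7.87 in BC-R3 with flagellin and 7.80, 8.07 and 8.14 without it, against 8.21, 9.14 and 7.56 with flagellin and 8.20, 9.17 and 9.60 without it in B6. (The 3 values of a group are given in the order of the labels' array numbers here and below, as log2 values.) The 6 CB-R1 arrays lay above the 6 C3Bir arrays. B6 held both the highest and the lowest array of the series, a span of more than 2 on the log2 scale within a single strain.

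**Figure D1:**
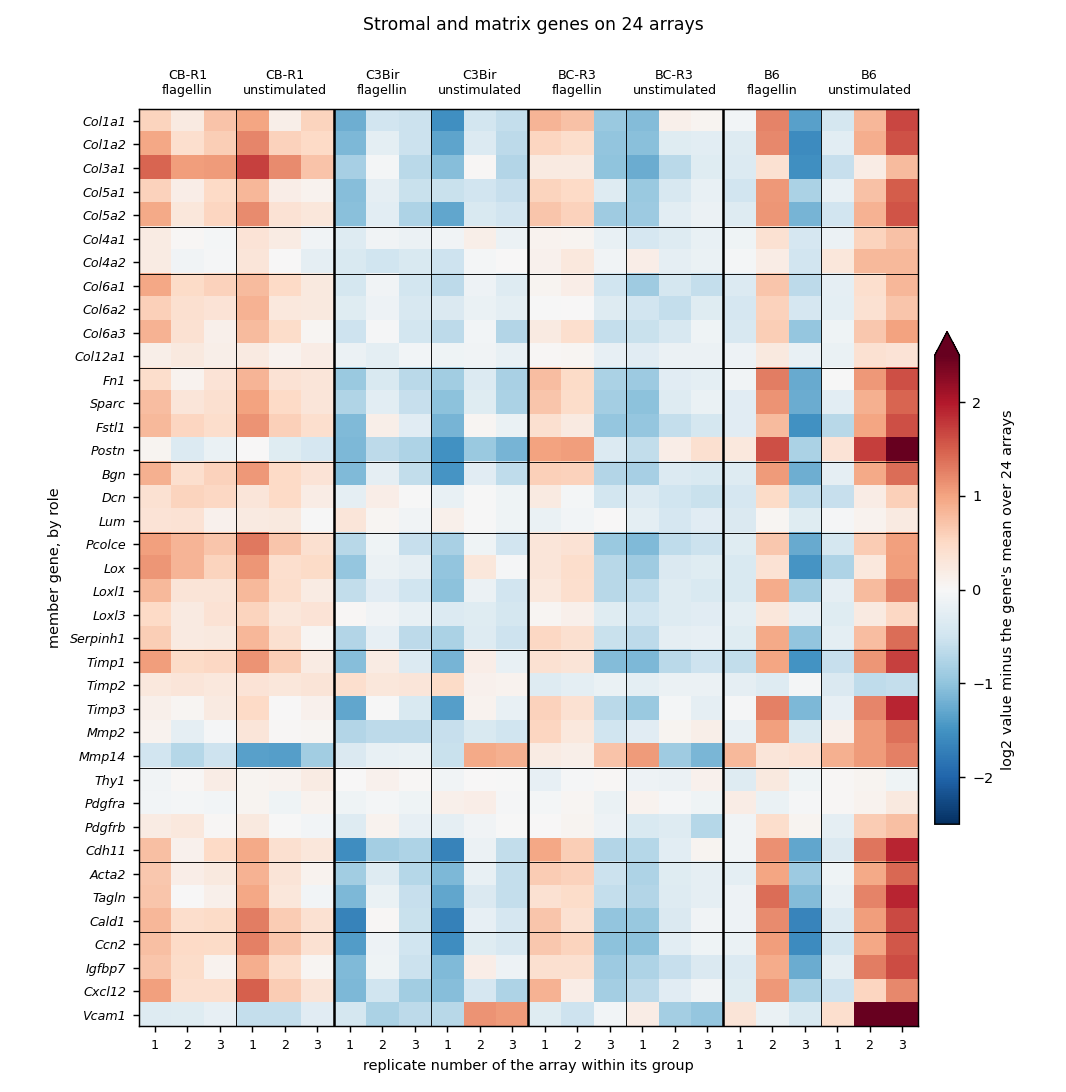
Each row is a gene, grouped by role, and each column an array, with the tint giving the log2 value minus the gene's mean over 24 arrays (tint saturates at its end values). CB-R1 arrays are mostly above the mean and C3Bir arrays below it, B6 unstimulated arrays 2 and 3 and B6 flagellin array 2 are high in most rows, B6 flagellin array 3 is low, and Timp2, Mmp14 and Vcam1 follow other patterns.

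The fibrillar collagens form the banded fibres of connective tissue. Col1a2 encodes the second chain of type I collagen. In CB-R1, Col1a2 was 11.57, 11.01 and 11.21 on the flagellin arrays and 11.82, 11.18 and 11.09 on the unstimulated ones, against 9.48, 10.34 and 10.05 and 9.27, 10.24 and 9.93 in C3Bir. The BC-R3 arrays had 11.13, 11.03 and 9.61 with flagellin and 9.55, 10.30 and 10.32 without it, against 10.27, 11.79 and 9.02 and 10.33, 11.51 and 12.19 in B6. Every CB-R1 array exceeded every C3Bir array. BC-R3 and B6 overlapped with flagellin and were narrowly apart without it. Col1a1 encodes the major chain. Col1a1 stood at 10.09, 9.76 and 10.24 in CB-R1 flagellin and 10.51, 9.67 and 10.08 in CB-R1 unstimulated arrays, against 8.31, 9.04 and 8.98 in C3Bir flagellin and 7.99, 9.07 and 8.94 in C3Bir unstimulated arrays. On the B6 background it was 10.37, 10.25 and 8.61 in BC-R3 flagellin and 8.44, 9.64 and 9.59 in BC-R3 unstimulated arrays, against 9.46, 10.76 and 8.17 in B6 flagellin and 9.08, 10.35 and 11.20 in B6 unstimulated arrays. B6 unstimulated array 3 was again the highest of the 24, and CB-R1 did not overlap C3Bir. Col3a1, the collagen of reticular fibres, ranged from 6.30 on B6 flagellin array 3 to 9.55 on CB-R1 unstimulated array 1. Col5a1 and Col5a2, whose products regulate fibril diameter, spanned 6.57 to 9.14 and 7.43 to 10.29.

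Type IV collagen builds the basement membrane sheet. Col4a1 measured 7.99, 7.83 and 7.74 with flagellin and 8.13, 7.99 and 7.70 without it in CB-R1, against 7.46, 7.70 and 7.65 with flagellin and 7.69, 7.93 and 7.64 without it in C3Bir. BC-R3 gave 7.87, 7.85 and 7.60 with flagellin and 7.36, 7.46 and 7.60 without it, against 7.67, 8.16 and 7.37 with flagellin and 7.65, 8.35 and 8.53 without it in B6. B6 unstimulated arrays 2 and 3 were the highest of the 24. Its partner Col4a2 was near the array median. In CB-R1, Col4a2 was 7.07, 6.77 and 6.83 on the flagellin arrays and 7.17, 6.87 and 6.63 on the unstimulated ones, against 6.48, 6.37 and 6.48 and 6.34, 6.82 and 6.87 in C3Bir. Its BC-R3 values were 6.97, 7.13 and 6.77 with flagellin and 7.03, 6.63 and 6.69 without it, against 6.81, 7.04 and 6.38 and 7.14, 7.67 and 7.68 in B6. Here all 3 B6 unstimulated arrays were above all of the B6 flagellin, BC-R3 unstimulated and C3Bir unstimulated arrays.

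Type VI collagen makes beaded microfibrils around cells, and type XII coats fibrils. Col6a1 stood at 8.73, 8.23 and 8.34 in CB-R1 flagellin and 8.56, 8.26 and 8.01 in CB-R1 unstimulated arrays, against 7.32, 7.67 and 7.30 in C3Bir flagellin and 7.11, 7.63 and 7.44 in C3Bir unstimulated arrays. Among B6-background cells it was 7.83, 7.92 and 7.26 in BC-R3 flagellin and 6.87, 7.32 and 7.16 in BC-R3 unstimulated arrays, against 7.42, 8.46 and 7.10 in B6 flagellin and 7.53, 8.18 and 8.59 in B6 unstimulated arrays. The CB-R1 values lay above those of C3Bir without overlap in both conditions. Col6a2 measured 9.30, 9.10 and 9.05 with flagellin and 9.57, 8.96 and 8.95 without it in CB-R1, against 8.41, 8.58 and 8.29 with flagellin and 8.34, 8.55 and 8.47 without it in C3Bir. BC-R3 gave 8.70, 8.71 and 8.39 with flagellin and 8.22, 8.10 and 8.40 without it, against 8.29, 9.28 and 8.28 with flagellin and 8.45, 9.09 and 9.40 without it in B6. CB-R1 and C3Bir were again apart, and B6 with flagellin held 1 high array beside 2 low ones. Col6a3 ranged from 6.85 to 8.82, and Col12a1, the least variable collagen of the list, from 7.43 to 8.08.

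Among the glycoproteins, fibronectin (Fn1) links cells to collagen. In CB-R1, Fn1 was 10.24, 9.90 and 10.14 on the flagellin arrays and 10.66, 10.16 and 10.11 on the unstimulated ones, against 8.87, 9.42 and 9.13 and 8.93, 9.45 and 8.996 in C3Bir. BC-R3 stood at 10.58, 10.28 and 9.02 with flagellin and 8.90, 9.53 and 9.56 without it, against 9.71, 11.09 and 8.55 and 9.79, 10.90 and 11.42 in B6. B6 alone covered the full range of the series. Postn encodes periostin, a matrix protein of fibroblasts and osteoblast precursors that binds integrins, and lies on chromosome 3. Postn stood at 8.18, 7.77 and 7.94 in CB-R1 flagellin and 8.13, 7.82 and 7.70 in CB-R1 unstimulated arrays, against 6.99, 7.46 and 7.35 in C3Bir flagellin and 6.59, 7.19 and 6.96 in C3Bir unstimulated arrays. On the B6 background it was 9.11, 9.15 and 7.77 in BC-R3 flagellin and 7.49, 8.27 and 8.52 in BC-R3 unstimulated arrays, against 8.38, 9.73 and 7.32 in B6 flagellin and 8.46, 9.83 and 10.60 in B6 unstimulated arrays. All 6 C3Bir arrays were lower than all 6 B6 arrays except flagellin array 3. Sparc, a collagen-binding protein of the matrix, and Fstl1, a secreted relative of follistatin, ranged from 8.35 to 11.03 and from 6.62 to 9.75.

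The small leucine-rich proteoglycans organise collagen fibrils. Biglycan (Bgn) is one of them. Bgn measured 10.38, 9.91 and 10.08 with flagellin and 10.59, 10.01 and 9.84 without it in CB-R1, against 8.40, 9.28 and 8.88 with flagellin and 8.03, 9.22 and 8.87 without it in C3Bir. BC-R3 gave 10.09, 10.08 and 8.77 with flagellin and 8.68, 9.15 and 9.12 without it, against 9.18, 10.56 and 8.28 with flagellin and 9.27, 10.45 and 10.90 without it in B6. CB-R1 was above C3Bir on every array. Decorin (Dcn) ranged from 6.40 to 7.64. Lumican (Lum) was close to the lower quartile of the arrays, and under it on 7 of them. In CB-R1, Lum was 5.82, 5.84 and 5.59 on the flagellin arrays and 5.70, 5.72 and 5.48 on the unstimulated ones, against 5.79, 5.52 and 5.40 and 5.61, 5.47 and 5.38 in C3Bir. The BC-R3 arrays had 5.33, 5.41 and 5.50 with flagellin and 5.25, 5.07 and 5.20 without it, against 5.11, 5.54 and 5.19 and 5.45, 5.57 and 5.70 in B6. All 3 BC-R3 unstimulated values were under the lower quartile of their arrays. No fold is given for Lum, and its log2 differences, where given, are between values near the low end of the arrays.

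Lysyl oxidases cross-link collagen, Pcolce enhances removal of the procollagen tail, and Serpinh1 is the collagen chaperone of the endoplasmic reticulum. Lox stood at 10.25, 9.996 and 9.71 in CB-R1 flagellin and 10.25, 9.57 and 9.63 in CB-R1 unstimulated arrays, against 8.19, 9.01 and 8.93 in C3Bir flagellin and 8.16, 9.44 and 9.13 in C3Bir unstimulated arrays. Among B6-background cells it was 9.46, 9.60 and 8.45 in BC-R3 flagellin and 8.27, 8.79 and 8.85 in BC-R3 unstimulated arrays, against 8.77, 9.51 and 7.68 in B6 flagellin and 8.38, 9.41 and 10.20 in B6 unstimulated arrays. The CB-R1 arrays were above the C3Bir arrays. Its relative Loxl3 varied less. Loxl3 measured 8.95, 8.69 and 8.83 with flagellin and 9.01, 8.74 and 8.79 without it in CB-R1, against 8.50, 8.38 and 8.27 with flagellin and 8.12, 8.15 and 8.03 without it in C3Bir. BC-R3 gave 8.52, 8.59 and 8.16 with flagellin and 7.96, 8.14 and 8.17 without it, against 8.21, 8.75 and 8.23 with flagellin and 8.16, 8.68 and 8.98 without it in B6. CB-R1 and C3Bir were apart in both conditions. Loxl1 spanned 6.46 to 8.71, Pcolce 6.22 to 8.80 and Serpinh1 7.94 to 10.32.

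The proteases and inhibitors did not share a pattern. Timp1, an inducible secreted inhibitor of metalloproteinases, followed the collagens. In CB-R1, Timp1 was 10.93, 10.37 and 10.42 on the flagellin arrays and 11.02, 10.52 and 10.11 on the unstimulated ones, against 8.83, 10.10 and 9.55 and 8.73, 10.06 and 9.71 in C3Bir. Its BC-R3 values were 10.28, 10.21 and 8.81 with flagellin and 8.77, 9.22 and 9.38 without it, against 9.28, 10.88 and 8.40 and 9.33, 10.998 and 11.60 in B6. Its lowest and highest arrays were both from B6. Timp2, an inhibitor that also takes part in activating the gelatinase Mmp2, varied little within groups, with a pooled SD of 0.11. Timp2 stood at 12.57, 12.61 and 12.58 in CB-R1 flagellin and 12.65, 12.59 and 12.64 in CB-R1 unstimulated arrays, against 12.73, 12.60 and 12.62 in C3Bir flagellin and 12.79, 12.42 and 12.40 in C3Bir unstimulated arrays. On the B6 background it was 11.99, 12.06 and 12.16 in BC-R3 flagellin and 12.06, 12.18 and 12.16 in BC-R3 unstimulated arrays, against 12.08, 11.999 and 12.27 in B6 flagellin and 11.94, 11.69 and 11.72 in B6 unstimulated arrays. All 12 arrays of the C3Bir background exceeded all 12 of the B6 background. Timp3, the matrix-bound inhibitor, ranged from 7.85 to 11.12.

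Mmp2 is a gelatinase of stromal cells. Mmp2 measured 7.52, 7.21 and 7.41 with flagellin and 7.73, 7.45 and 7.48 without it in CB-R1, against 6.71, 6.78 and 6.77 with flagellin and 6.86, 7.05 and 6.93 without it in C3Bir. BC-R3 gave 7.97, 7.70 and 6.94 with flagellin and 7.15, 7.51 and 7.59 without it, against 7.24, 8.45 and 7.04 with flagellin and 7.57, 8.50 and 8.81 without it in B6. The C3Bir arrays were lower than all B6 arrays of the same condition. Mmp14 is a membrane-anchored collagenase that macrophages also express. In CB-R1, Mmp14 was 10.32, 10.07 and 10.27 on the flagellin arrays and 9.44, 9.40 and 9.93 on the unstimulated ones, against 10.43, 10.60 and 10.62 and 10.23, 11.73 and 11.67 in C3Bir. BC-R3 stood at 10.99, 10.94 and 11.50 with flagellin and 11.86, 9.90 and 9.64 without it, against 11.60, 11.10 and 11.15 and 11.68, 11.86 and 12.05 in B6. The highest values were on the B6 arrays, C3Bir unstimulated arrays 2 and 3, BC-R3 unstimulated array 1 and BC-R3 flagellin array 3, and the lowest on CB-R1 unstimulated arrays 1 and 2. The high arrays include the 4 with the highest cytokine mean, whose part in the Mmp14 values was not tested.

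The stromal surface genes were split. Thy1 and the platelet-derived growth factor receptor Pdgfra, markers of many fibroblasts, were low throughout, with ranges of 5.03 to 5.60 and 6.17 to 6.59, and Thy1 was under the lower quartile on 13 arrays. Pdgfrb, the receptor of pericytes and fibroblasts, was above the array median on every array. Pdgfrb stood at 7.65, 7.73 and 7.48 in CB-R1 flagellin and 7.71, 7.45 and 7.39 in CB-R1 unstimulated arrays, against 7.14, 7.54 and 7.24 in C3Bir flagellin and 7.23, 7.37 and 7.44 in C3Bir unstimulated arrays. Among B6-background cells it was 7.47, 7.53 and 7.33 in BC-R3 flagellin and 7.07, 7.13 and 6.74 in BC-R3 unstimulated arrays, against 7.37, 7.89 and 7.52 in B6 flagellin and 7.24, 8.08 and 8.21 in B6 unstimulated arrays. BC-R3 unstimulated was below B6 unstimulated on every array. Cadherin-11 (Cdh11), an adhesion protein of mesenchymal cells, had the widest range after Postn. Cdh11 measured 7.80, 7.16 and 7.55 with flagellin and 7.99, 7.45 and 7.34 without it in CB-R1, against 5.50, 6.20 and 6.27 with flagellin and 5.39, 6.91 and 6.43 without it in C3Bir. BC-R3 gave 8.02, 7.67 and 6.33 with flagellin and 6.34, 6.79 and 7.12 without it, against 6.97, 8.19 and 5.76 with flagellin and 6.69, 8.39 and 8.96 without it in B6. C3Bir unstimulated array 1 was under the lower quartile, so no fold is given for C3Bir.

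Acta2, Tagln and Cald1 encode smooth muscle actin, transgelin and caldesmon, the contractile proteins of myofibroblasts and smooth muscle. In CB-R1, Acta2 was 10.61, 10.11 and 10.17 on the flagellin arrays and 10.80, 10.26 and 10.02 on the unstimulated ones, against 9.07, 9.60 and 9.23 and 8.81, 9.76 and 9.33 in C3Bir. The BC-R3 arrays had 10.56, 10.51 and 9.40 with flagellin and 9.16, 9.63 and 9.70 without it, against 9.69, 10.92 and 9.03 and 9.82, 10.88 and 11.37 in B6. CB-R1 and C3Bir did not overlap. Cald1 stood at 9.38, 8.99 and 9.02 in CB-R1 flagellin and 9.83, 9.17 and 8.93 in CB-R1 unstimulated arrays, against 6.88, 8.57 and 7.99 in C3Bir flagellin and 6.85, 8.33 and 8.13 in C3Bir unstimulated arrays. On the B6 background it was 9.24, 8.92 and 7.55 in BC-R3 flagellin and 7.60, 8.19 and 8.47 in BC-R3 unstimulated arrays, against 8.41, 9.73 and 6.90 in B6 flagellin and 8.20, 9.60 and 10.20 in B6 unstimulated arrays. Cald1 had the largest pooled within-group SD of the 39 genes, 0.84. Tagln ranged from 7.69 to 10.88.

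Of the secreted and adhesion factors, Ccn2 is connective tissue growth factor, a matricellular protein induced by TGF-beta. Ccn2 measured 10.37, 10.12 and 10.09 with flagellin and 10.88, 10.30 and 10.01 without it in CB-R1, against 8.23, 9.48 and 9.13 with flagellin and 8.06, 9.31 and 9.22 without it in C3Bir. BC-R3 gave 10.28, 10.18 and 8.59 with flagellin and 8.59, 9.36 and 9.51 without it, against 9.45, 10.66 and 8.04 with flagellin and 9.16, 10.59 and 11.17 without it in B6. As for Col1a2, B6 unstimulated array 3 was the highest and B6 flagellin array 3 the lowest of the 24. Vcam1, an adhesion molecule of stromal and activated endothelial cells for leukocytes, is induced by cytokines and lies on chromosome 3. In CB-R1, Vcam1 was 8.12, 8.13 and 8.24 on the flagellin arrays and 7.84, 7.83 and 8.14 on the unstimulated ones, against 7.99, 7.64 and 7.79 and 7.73, 9.56 and 9.49 in C3Bir. Its BC-R3 values were 8.13, 7.92 and 8.35 with flagellin and 8.61, 7.59 and 7.47 without it, against 8.75, 8.28 and 8.06 and 8.86, 10.92 and 10.93 in B6. The 4 highest values were those of B6 and C3Bir unstimulated arrays 2 and 3, the arrays with the highest cytokine mean. Igfbp7, a secreted binding protein of insulin-like growth factors, ranged from 7.72 to 10.58, and Cxcl12, the stromal chemokine that holds stem cells in the marrow, from 6.37 to 8.997.

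**Figure D2:**
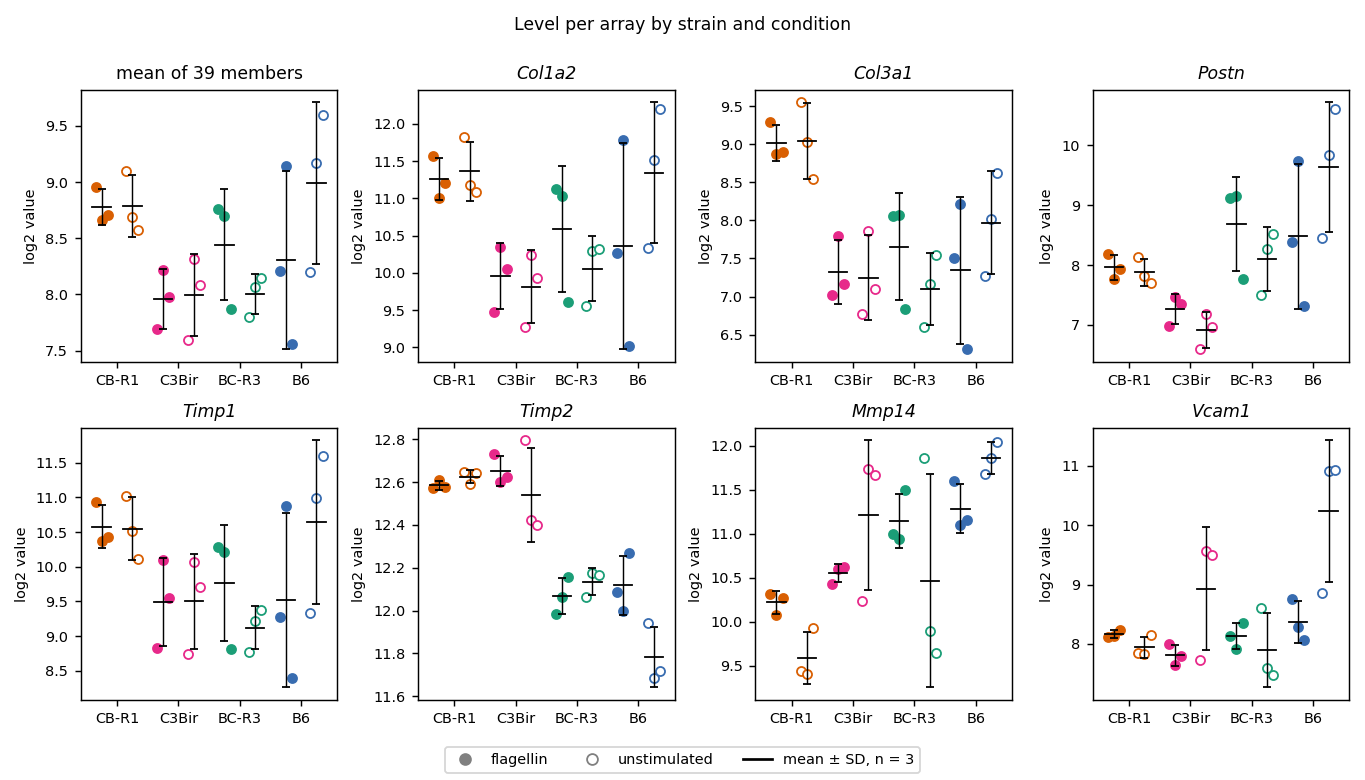
Points are single arrays (filled with flagellin, open unstimulated) by strain on the log2 scale, and bars are the mean ± SD of 3 arrays. The mean of the 39 genes, Col1a2, Col3a1 and Timp1 separate CB-R1 from C3Bir and scatter in B6, Timp2 splits the C3Bir background from the B6 background, and Vcam1 is highest on 2 arrays each of unstimulated B6 and unstimulated C3Bir.

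The first question was what flagellin did to these genes in each strain. In B6, Timp2 rose with flagellin and Col4a2 and Vcam1 fell, and the other 36 genes did not pass. The call of 3 of 39 compares with 22.4% of all genes called in this comparison (12.9% higher, 9.49% lower, adjusted p under 0.05). Vcam1 averaged 8.36 ± 0.36 with flagellin and 10.24 ± 1.19 without it in B6 (SD, n = 3 each), a log2 difference of -1.87 ± 0.46 (SE, limma adjusted p = 0.00894). Col4a2 differed by -0.76 ± 0.18 (limma adjusted p = 0.00855) and Timp2 by 0.34 ± 0.09 (limma adjusted p = 0.0163). Of 5 other Timp2 probe sets 4 differed in the same direction and 1 in the other, by -0.04. The differences of the 39 genes had a median of -0.74 and 38 were below 0, against a median of -0.02 over all genes. Without overlap 1 member was higher and 3 were lower, against 15.6% and 14% of all genes. The means of the 39 genes overlapped between the groups, at 7.56 to 9.14 with flagellin and 8.20 to 9.60 without it. No member was called without B6 unstimulated array 2 or without array 3, where 5.71% and 5.41% of all genes were. Leaving out array 1 gave 26 calls (31% of all genes), and so did leaving out B6 flagellin array 2 (26.4%). A fit of the 6 B6 arrays alone called no member and 0% of all genes. Of the 19 cytokine genes 13 were lower with flagellin in the same comparison, with a median of -2.08, and the part of this in the stromal values was not tested. Without the 4 arrays of high cytokine mean the median of the 39 genes was 0.13. With 1 unstimulated B6 array left, limma called 0% of all genes and none of the members, and no member was at an unadjusted p under 0.05.

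In BC-R3, flagellin left 36 of the 39 differences above 0, with a median of 0.51, and none was called by limma, which called 0% of all genes. Pdgfrb at 0.46 ± 0.19 and Lum at 0.24 ± 0.11 (log2 ± SE) were the only 2 members at an unadjusted p under 0.05 and the only 2 whose groups did not overlap (7.51% of all genes were higher and 7.34% lower without overlap). In CB-R1 the median was -0.03 and no member had an unadjusted p under 0.05. In C3Bir the median was 0.01 and Vcam1 alone was at an unadjusted p under 0.05, with a log2 difference of -1.12 ± 0.46 (limma adjusted p = 0.624). Limma called 0% of all genes in both of these strains. Of all 18193 genes 1584 were at an unadjusted p under 0.05 in BC-R3, 517 in CB-R1 and 1432 in C3Bir. Without overlap 1 member was higher in CB-R1, against 5.79% of all genes (5.48% lower), and 2 were higher and 2 lower in C3Bir, against 7.07% and 7.15%. Over the 4 strains together no member was called, against 0.308% of all genes. At an unadjusted p under 0.05 there were 3 members, against 3908 of all 18193 genes. The count was 1 over the 4 strains without B6 unstimulated array 1, where 9.98% of all genes were called. It was 1 in BC-R3 without BC-R3 unstimulated array 1, against 1.17% of all genes.

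Whether strains differed in the flagellin change was tested on the difference of the changes. The change was higher in BC-R3 than in B6 for Vcam1 by 2.12 ± 0.65, for Col4a2 by 0.93 ± 0.26 and for Lum by 0.53 ± 0.16 (log2 ± SE, limma adjusted p = 0.0438, 0.0334 and 0.0430). For Lum the BC-R3 unstimulated arrays were all under the lower quartile, so the size of its difference is uncertain. The 3 calls compare with 10.5% of all genes (4.16% higher), and the median over the 39 genes was 1.26. This test uses the same B6 arrays as the change in B6, and 28 members passed once B6 unstimulated array 1 was left out (23.3% of all genes), and 25 once B6 flagellin array 2 was (15.8%). A fit of the 12 BC-R3 and B6 arrays alone called no member and 0% of all genes. The count was 5 without BC-R3 unstimulated array 1 (21.4%). It was 0 without any other array of BC-R3, B6 unstimulated array 2 or 3 or B6 flagellin array 3 (0.22% to 7.4%). It was 1 without B6 flagellin array 1, C3Bir flagellin array 2 or array 1 or 2 of CB-R1 in either condition (5.89% to 8.89%). Neither the pair C3Bir and B6 nor the pair CB-R1 and C3Bir had a member called by limma, which called 0% of all genes. They had 3 and 1 members at an unadjusted p under 0.05, against 2433 and 894 of all 18193 genes. Leaving out B6 unstimulated array 1 gave 1 call for C3Bir and B6, against 7.55% of all genes.

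The parent strains were compared next, C3Bir being susceptible to colitis and B6 resistant. Among unstimulated cells, 12 of the 39 genes were lower in C3Bir than in B6 and Timp2 was higher, against 6.3% of all genes called lower and 10.4% higher. The genes that were lower covered most roles. They were the fibrillar collagen gene Col5a1, Col4a2, the glycoprotein genes Fn1 and Postn, Bgn, the processing genes Loxl1, Loxl3 and Serpinh1, the gelatinase Mmp2, Cdh11, and the contractile genes Acta2 and Tagln. Postn had the widest difference, averaging 6.91 ± 0.30 in C3Bir and 9.63 ± 1.08 in B6 (SD, n = 3 each), or 6.57-fold lower in C3Bir (limma adjusted p = 0.000931). Fn1 was 2.98-fold lower (limma adjusted p = 0.0283), Tagln 3.33-fold lower (limma adjusted p = 0.0259) and Timp2 1.69-fold higher in C3Bir (limma adjusted p = 1.38e-05). The 2 other Acta2 probe sets differed by -0.03 and 0.09. The median over the 39 genes was -1.14, and 38 of 39 were below 0. Without overlap 13 members were lower and 1 higher, against 13.2% and 15.1% of all genes. The count of 13 was 4 without B6 unstimulated array 2 or 3, 32 without array 1, 4 without C3Bir unstimulated array 1, 6 without C3Bir unstimulated array 3 and 20 without B6 flagellin array 2. These fits called 8.7% to 23.1% of all genes. A fit of the 6 arrays compared called 3 members and 6.07% of all genes. Without the 4 arrays of high cytokine mean, which sets 1 array against 1 with the spread of the other groups, Timp2 was the only member called, as were 1.4% of all genes, and the median was -0.59.

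With flagellin, Timp2 was again higher in C3Bir, at 12.65 ± 0.07 against 12.12 ± 0.14 in B6 (SD, n = 3 each, limma adjusted p = 0.000816), and no other member passed. All genes were called at 6.63% in this comparison (3.7% higher, 2.93% lower). Mmp2 differed by -0.83 ± 0.31 (limma adjusted p = 0.129) and Postn by -1.21 ± 0.50 (limma adjusted p = 0.183), and C3Bir was below B6 without overlap for Mmp2, Mmp14 and Vcam1 (8.42% of all genes). Timp2 was above without overlap, as were 11.9% of all genes. The median over the 39 genes was -0.37. Without B6 flagellin array 2 or 3 the count was 2 (7.24% and 5.46% of all genes), as it was in a fit of the 6 arrays compared (3.66%). The flagellin arrays include none of the 4 with the highest cytokine mean.

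BC-R3 differs from B6 in the Cdcs1 region. Among unstimulated cells, 19 of the 39 genes were lower in BC-R3 than in B6 and Timp2 was higher, against 30.3% of all genes called, 12.7% lower and 17.6% higher. Without overlap 17 members were lower and 1 higher, against 19.9% and 17.5% of all genes. Both basement membrane collagen genes were lower, with 3 of 4 genes of collagen VI and XII, 3 of 5 processing genes and 2 of 3 contractile genes. Vcam1 averaged 7.89 ± 0.63 in BC-R3 and 10.24 ± 1.19 in B6 (SD, n = 3 each), 5.08-fold lower in BC-R3 (limma adjusted p = 0.00147). Pdgfrb was 1.82-fold lower (limma adjusted p = 0.00265), Col4a1 1.62-fold lower (limma adjusted p = 0.0101) and Col6a1 1.98-fold lower (limma adjusted p = 0.0152). Mmp14 was 2.63-fold lower (limma adjusted p = 0.0157), with BC-R3 unstimulated array 1 as high as B6. Of the 19 cytokine genes 17 were also lower in BC-R3, and the part of this in the stromal values was not tested. The count of 20 was 5 without B6 unstimulated array 2, 4 without array 3 and 35 without array 1. It was 9, 6 and 9 without BC-R3 unstimulated array 1, 2 or 3. The share of all genes in these fits lay between 15.2% and 36.3%. A fit of the 6 arrays compared called no member and 0.0385% of all genes. Without the 4 arrays of high cytokine mean, which leaves 1 B6 array, the count was 0 in limma (0.0165% of all genes), with 2 members at an unadjusted p under 0.05, and the median was -0.21, against -1.04 with them. Of the 2 other probe sets each of Acta2 and Igfbp7, 1 differed in the other direction, as did 1 of 3 of Col12a1 and 1 of 5 of Timp2. This comparison and that of C3Bir use the same 3 B6 arrays.

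With flagellin, BC-R3 and B6 had no member apart. Limma called no member, against 0.0165% of all genes (0.011% higher, 0.0055% lower), no member was at an unadjusted p under 0.05 and the groups of every member overlapped, where 3.17% of all genes were higher and 3.44% lower without overlap. The median was 0.18. Within BC-R3 the means of the 39 genes on flagellin arrays 1 and 2 were 8.76 and 8.70 and on array 3 was 7.87, which lay inside the spread of B6.

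CB-R1 differs from C3Bir in carrying the B6 segment, and here the stromal genes stood apart by array rather than by adjusted p. With flagellin, 33 of the 39 genes were higher on all 3 CB-R1 arrays than on all 3 C3Bir arrays, where 10.2% of all genes were. Mmp14 was lower without overlap, as were 6.96% of all genes. None of the 39 passed in limma, against 0.055% of all genes called (0.044% higher, 0.011% lower), and the lowest adjusted p was 0.197. At an unadjusted p under 0.05 were 22 of the 39, against 1472 of all 18193 genes. Col3a1 averaged 9.02 ± 0.23 in CB-R1 and 7.32 ± 0.42 in C3Bir (SD, n = 3 each), 3.24-fold higher. Cxcl12 was 2.74-fold higher, Pcolce 2.50-fold, Lox 2.42-fold and Bgn 2.42-fold, while Timp2 differed by -0.07 on the log2 scale. The median log2 difference was 0.94 over the 39 genes and 0.01 over all genes. By role it was 1.28 for the fibrillar collagens, 0.35 for the basement membrane collagens, 0.98 for the glycoproteins and 0.99 for the contractile genes. In a fit of these 6 arrays alone 12 members were higher and none lower, against 0.335% of all genes called. None of these 6 arrays is among the 4 with the highest cytokine mean.

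Among unstimulated cells, 29 of the 39 genes were higher in CB-R1 than in C3Bir without overlap, against 12.4% of all genes. Mmp14 was lower without overlap, as were 8.44% of all genes. Loxl3 passed in limma, averaging 8.85 ± 0.14 in CB-R1 and 8.10 ± 0.07 in C3Bir (SD, n = 3 each), 1.68-fold higher (limma adjusted p = 0.0381), where 1.01% of all genes were called, 0.781% higher and 0.225% lower. Col3a1 followed at 3.47-fold higher (limma adjusted p = 0.0502), and Mmp14 was 3.08-fold lower (limma adjusted p = 0.0535). The median was 0.91 and 25 members were at an unadjusted p under 0.05, against 3225 of all 18193 genes. A fit of the 6 arrays compared called no member and 0.044% of all genes. Without the 4 arrays of high cytokine mean, which left 1 C3Bir array and took the spread from the other groups, the median was 1.38 and limma called no member and 0.0165% of all genes. No member passed without C3Bir unstimulated array 2 or 3, C3Bir flagellin array 2, CB-R1 unstimulated array 1 or 2, CB-R1 flagellin array 2 or 3 or BC-R3 flagellin array 2. The count was 4 without C3Bir or B6 unstimulated array 1, and 3 without CB-R1 unstimulated array 3 or BC-R3 unstimulated array 1. It was 2 without C3Bir flagellin array 1, BC-R3 unstimulated array 3, BC-R3 flagellin array 3 or B6 flagellin array 2 or 3. The fits with no call had 0.033% to 0.445% of all genes called and the others 0.775% to 9.71%. The difference between the flagellin changes of the 2 strains had a median of -0.04 over the members. Same-numbered arrays of the 2 conditions deviated together, at r of 0.30 to 0.50 in CB-R1 and 0.31 to 0.48 in C3Bir. The unstimulated result is therefore not independent of that with flagellin. Members also varied together (median r over pairs 0.86), so the 33 and 29 genes are not separate results.

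**Figure D3:**
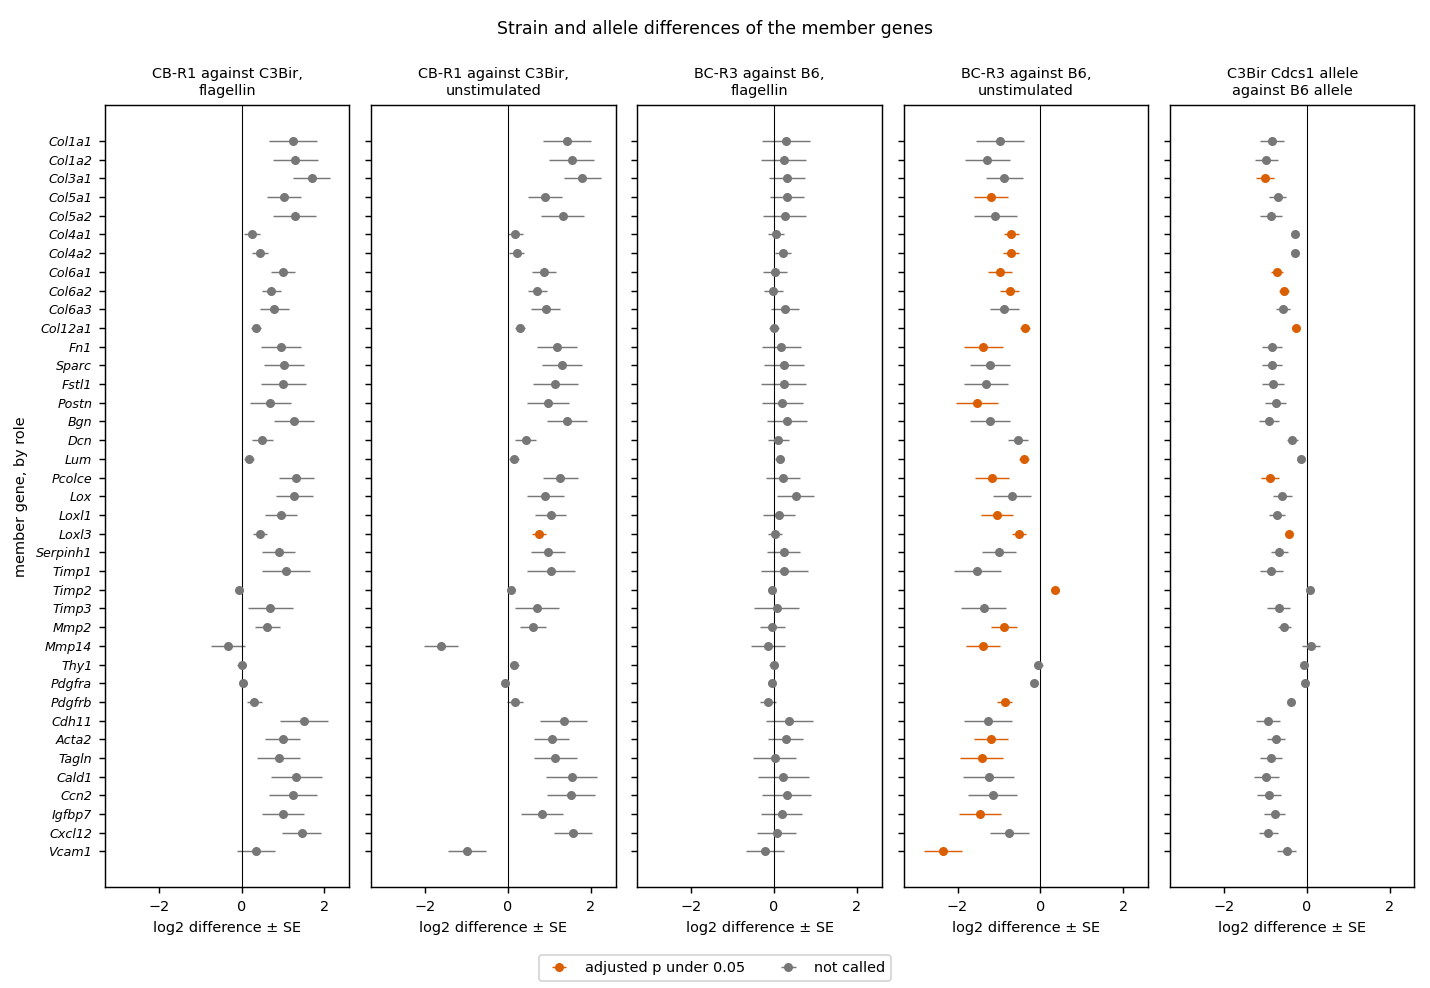
Points are log2 differences of each gene with their SE, by role down the page, in panels for CB-R1 against C3Bir and BC-R3 against B6 in each condition and for the C3Bir Cdcs1 allele against the B6 allele. CB-R1 lies above C3Bir in both conditions for most genes (medians 0.94 and 0.91), BC-R3 lies below B6 among unstimulated cells (median -1.04) and not with flagellin (0.18), and the allele difference is below 0 for 37 of 39 genes.

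The C3Bir allele of Cdcs1 was set against the B6 allele by averaging C3Bir and BC-R3 and comparing them with B6 and CB-R1, 12 arrays each. The conditions of a strain share its 3 mice, so the 12 arrays of a side are not independent, which this fit ignores. A replicate block by array number gave 3 calls within strain and 10 across groups, though the numbers pair arrays only in CB-R1 and C3Bir. With the C3Bir allele 6 of the 39 genes were lower and none was higher. The 6 genes that passed were Col3a1 at -1.01 ± 0.22, Pcolce at -0.89 ± 0.21, Col6a1 at -0.71 ± 0.14, Col6a2 at -0.55 ± 0.12, Loxl3 at -0.42 ± 0.08 and Col12a1 at -0.26 ± 0.06 (log2 ± SE, limma adjusted p = 0.0211 to 0.0425). Of all genes 1.3% were called, 0.588% lower and 0.709% higher. Thus 3 of 4 genes of collagen VI and XII passed, with a fibrillar collagen and 2 processing genes, and 0 of 3 proteoglycan and 0 of 3 contractile genes. The median over the 39 genes was -0.71 with 37 below 0, against -0.01 over all genes. At an unadjusted p under 0.05 were 35 of the 39, against 2920 of all 18193 genes. Not every pair in this average went this way. With flagellin, 30 of the 39 genes were higher in BC-R3 than in B6 (median 0.18). For the 6 genes the BC-R3 and B6 means there were 7.66 and 7.34 (Col3a1), 7.40 and 7.18 (Pcolce) and 7.67 and 7.66 (Col6a1). They were 8.60 and 8.62 for Col6a2, 8.42 and 8.40 for Loxl3 and 7.67 and 7.68 for Col12a1. The arrays of the allele groups overlapped for every member, where 0.011% of all genes were higher and 0.0165% lower without overlap. Leaving out B6 unstimulated array 1 gave 33 calls (6.5% of all genes) and leaving out B6 flagellin array 3 gave 21 (1.61%). The count was 1 without B6 unstimulated array 2 or 3 or CB-R1 flagellin array 1, and 0 without C3Bir flagellin array 3. It was 2 without C3Bir unstimulated array 3, BC-R3 unstimulated array 2, BC-R3 flagellin array 3 or CB-R1 unstimulated array 1, and 3 without array 2 of CB-R1 in either condition, and these fits called 0.231% to 0.627% of all genes. Without the 4 arrays of high cytokine mean, which leaves 1 unstimulated array each of B6 and C3Bir, the median was -0.60. Col12a1 has 3 other probe sets, of which 2 differed in the other direction.

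The genetic background, C3Bir and CB-R1 against B6 and BC-R3, gave calls in both directions and a median of -0.03. Here too the 12 arrays of a side share mice between the conditions. Timp2, Col3a1, Dcn and Lum were higher in the C3Bir background, and Postn, Mmp14, Mmp2 and Col4a2 were lower, against 16.6% of all genes called higher and 10.6% lower. The Col3a1 difference came from CB-R1, with means of 9.02 with flagellin and 9.04 without it, against 7.32 and 7.25 in C3Bir. B6 had 7.34 and 7.97 and BC-R3 7.66 and 7.10, so C3Bir was not above B6. Dcn was also highest in CB-R1, at 7.52 and 7.37, against 7.02 and 6.94 in C3Bir. It was 6.84 and 7.11 in B6 and 6.94 and 6.56 in BC-R3. Timp2 averaged 12.60 in the C3Bir background and 12.03 in the B6 background, 1.49-fold higher (limma adjusted p = 7.32e-09), and was the only member whose 12 arrays on each side did not overlap (1.51% of all genes higher, 1.23% lower). All 5 other Timp2 probe sets were also higher in the C3Bir background, by 0.11 to 0.38. Postn averaged 7.51 in the C3Bir background and 8.72 in the B6 background, 2.32-fold lower (limma adjusted p = 0.000944). Mmp14 was 1.73-fold lower (limma adjusted p = 0.00594), Mmp2 1.46-fold lower (limma adjusted p = 0.0106) and Col3a1 1.56-fold higher (limma adjusted p = 0.0359). The calls of Timp2, Postn, Lum, Mmp2 and Mmp14 held in each fit that left out 1 array. The count was 5 without C3Bir flagellin array 2, where 25.7% of all genes were called. Without the 4 arrays of high cytokine mean Col3a1, Col4a2 and Mmp2 no longer passed, Postn differed by -1.002 and Timp2 by 0.60. The other Dcn probe set differed in the other direction, by -0.09.

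Because the general level of these genes differed so much between arrays, Postn and Col3a1 were also set against the mean of the other 38 members on the same array. These genes were chosen after their values were seen, and the values are given as a description. Postn lay between -1.15 and -0.65 relative to that mean on the 12 arrays of the C3Bir background, and between -0.31 and 1.02 on the 12 of the B6 background. The ranges did not overlap. Col3a1 lay between -1.003 and 0.46 in the C3Bir background, with a median of -0.23, and between -1.29 and -0.62 in the B6 background, with a median of -0.95. Mmp2 had a median of -1.28 in the C3Bir background and of -0.70 in the B6 background.

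**Figure D4:**
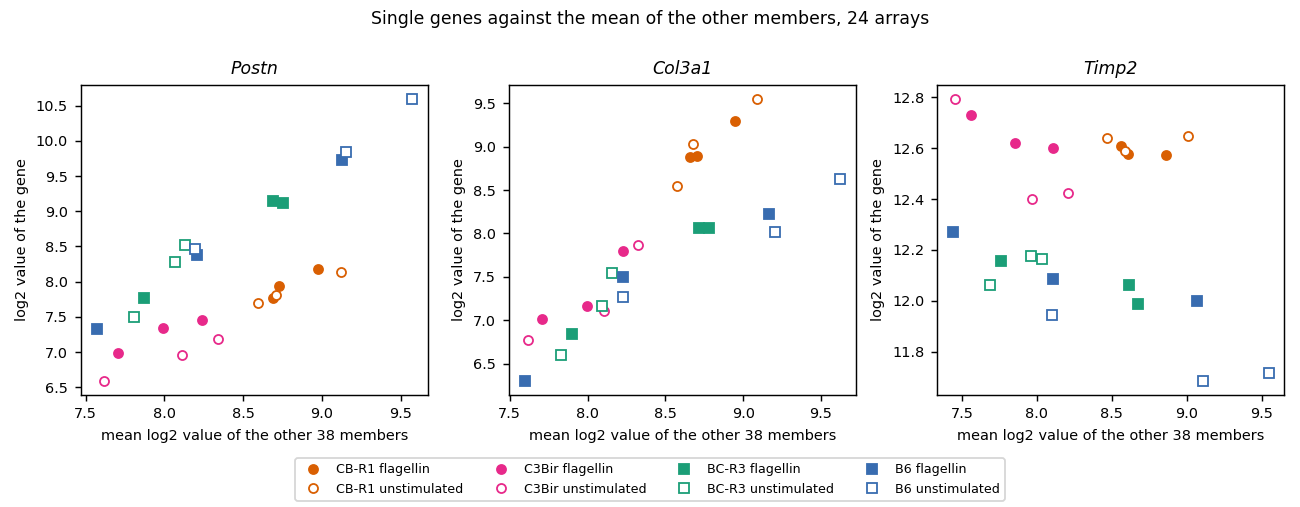
Each point is an array, with the mean log2 value of the other 38 members on the horizontal axis and the gene's log2 value on the vertical axis (circles, C3Bir background; squares, B6 background; filled, flagellin; open, unstimulated). Postn increases with the other members along 2 lines, the C3Bir background lower, Col3a1 is highest in CB-R1, and Timp2 is higher on all 12 arrays of the C3Bir background.

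Most members varied together from array to array within groups. Deviations from the group means were correlated over the 24 arrays, as a description, since the arrays share strains and donors. For 27 of the 39 genes r with the mean of the other members was above 0.9, and for 6 it was between 0.7 and 0.9 (Col6a2, Dcn, Loxl3, Col12a1, Col4a2 and Pdgfrb). Timp1 led with 0.99, followed by Bgn, Acta2, Tagln and Col5a2. The median r over pairs of members was 0.86. Of the 18154 other genes 1.78% were above 0.7 and 0.281% above 0.9 with the mean of the members. The 6 members apart were Vcam1 at 0.38, Lum at 0.27, Thy1 at 0.16, Pdgfra at 0.12, Mmp14 at -0.03 and Timp2 at -0.74. Lum, Thy1 and Pdgfra are the 3 genes that were below the array median throughout. Amplitudes differed, with a slope on the mean of the other members of 1.79 for Cald1, 1.71 for Timp1, 1.70 for Ccn2 and 1.66 for Cdh11, against 0.50 for Col4a1 and 0.26 for Col12a1.

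**Figure D5:**
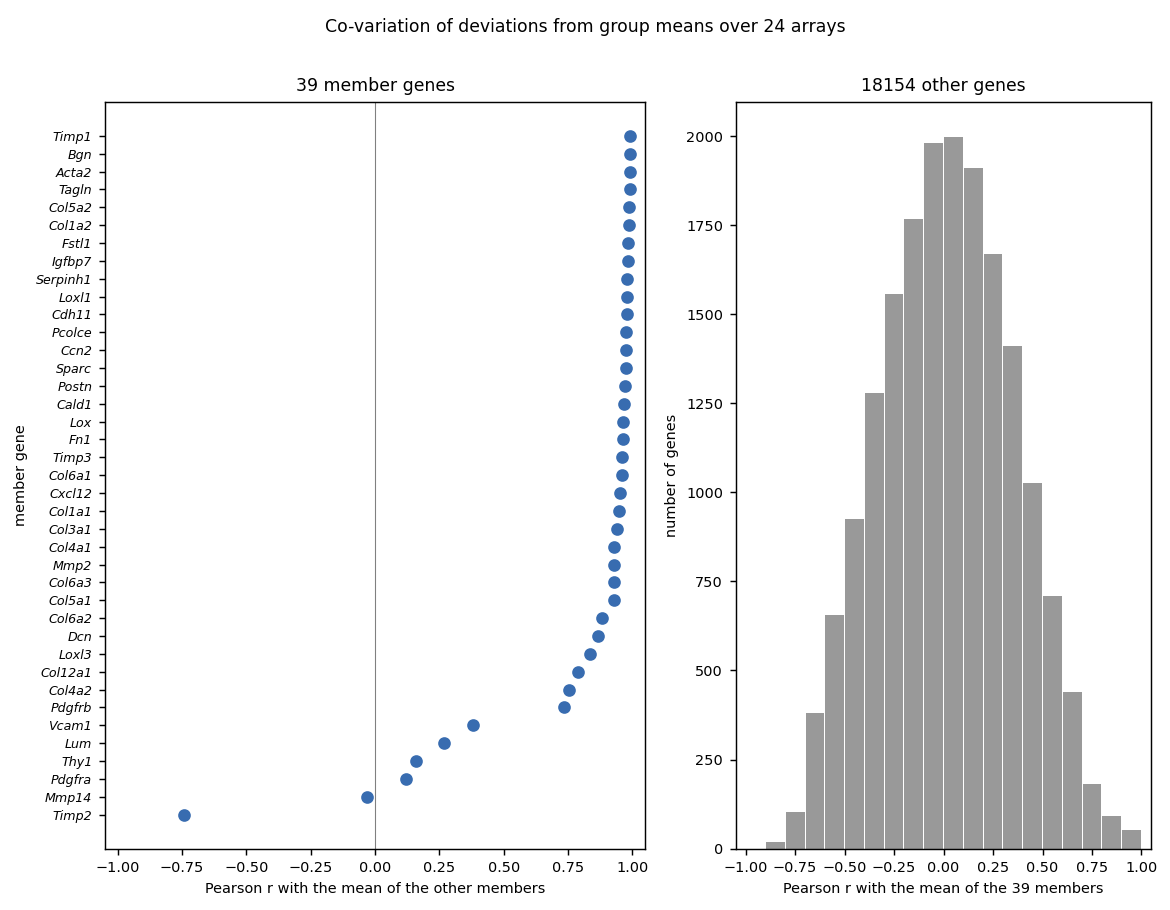
The left panel gives, for each of the 39 genes, Pearson's r over 24 arrays between its deviations from the group means and the mean deviation of the other members, and the right panel gives the number of other genes by r with the mean of the 39. Of the 39 genes 27 lie above 0.9 and Timp2 lies at -0.74, while the 18154 other genes centre near 0.

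The 10 genes outside the list with the highest r were Cyp1b1, Cnn3, Ppic, Csrp2, Fat1, Aebp1, Tm4sf1, Fermt2, Tnc and Ccn1, with r from 0.97 to 0.98. Cnn3 and Csrp2 encode actin-associated proteins, Tnc the matrix glycoprotein tenascin-C, and Ccn1 a relative of Ccn2. Cnn3 ranged from 5.69 to 9.14 and Tnc from 6.12 to 9.62 over the arrays. Of 9 smooth muscle and pericyte markers 5 were above 0.7, led by Myl9, a myosin light chain, at 0.96 and Tpm2, a tropomyosin, at 0.95. Their median was 0.78 and the lowest was Myh11 at -0.37. Of 21 fibroblast and marrow stroma markers 5 were above 0.7, led by Fbln2, a matrix fibulin, at 0.96. The median of these 21 was 0.29 and the lowest was Aspn at -0.61. Also among the 21, Fap, a fibroblast surface protease, was under the lower quartile on 22 arrays and the mesenchymal regulator Twist1 on 23. No marker of osteoblasts (5 measured), chondrocytes (5), endothelial cells (8), adipocytes (5), osteoclasts (7) or epithelial cells (5) had an r above 0.7. The adipocyte hormone gene Adipoq and the osteoblast gene Dmp1 were under the lower quartile on all 24 arrays, as was the endothelial receptor gene Tek. Of the 9 macrophage markers 3 were below -0.7, namely Csf1r at -0.78, Itgam at -0.77 and Lyz2 at -0.76. Of the 18154 other genes 0.661% were below -0.7. The median of the 9 markers was -0.55 and the highest was Cd14 at 0.04. The part of the macrophage markers in the stromal values was not tested.

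Other genes of the matrix varied with the members in part. Of 20 other collagen genes 4 had an r above 0.7 (Col8a1, Col16a1, Col5a3 and Col27a1), of 37 other glycoproteins and proteoglycans 9, of 14 collagen-modifying enzymes 4, of 20 other proteases and inhibitors 2, of 18 TGF-beta pathway genes 3 and of 17 matrix receptors 1. The TGF-beta pathway had genes at both ends. Inhba, an activin subunit, was at 0.92, Tgfb2, a ligand, at 0.91 and the receptor gene Tgfbr3 at 0.84. The receptor genes Tgfbr1 and Tgfbr2 were at -0.70 and -0.72, the ligand gene Tgfb1 at -0.48, and the median of the 18 was -0.14. In the allele comparison 1 of the 20 other collagens was lower with the C3Bir allele (Col2a1 at -0.31 ± 0.07), no gene of the 37 glycoproteins and proteoglycans was called by limma, and Tgfbr1 at 0.26 ± 0.06 and Tgif1, a repressor of the pathway, at 0.11 ± 0.03 were higher. The medians of these lists in that comparison lay between -0.11 and 0.02. In CB-R1 against C3Bir with flagellin limma called no gene of the 6 lists, and the medians lay between 0.00 and 0.07. Among unstimulated cells, BC-R3 had 8 of the 20 other collagen genes and 10 of the 37 glycoproteins and proteoglycans below B6, against 12.7% of all genes called lower and 17.6% higher, among them Col5a3 at -0.94 ± 0.26 and Tnc at -1.89 ± 0.53 (log2 ± SE). In the same comparison 1 glycoprotein gene, Emilin1, was higher at 0.32 ± 0.10. Calls went both ways in collagen modification (4 higher, 5 lower of 14), matrix receptors (4 and 6 of 17) and the TGF-beta pathway (4 and 3 of 18), and 7 of 20 other proteases and inhibitors were lower.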

How the data were processed

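RNA of 24 macrophage cultures was measured on Affymetrix arrays, 3 per group in 8 groups. The deposited table holds log2 values per probe set, recognised as log2 from their range; the authors' summarisation and normalization are not stated in the sources used. Of 45037 probe sets in it, 4 had no values and 34944 had 1 gene symbol in the platform annotation, which can be old. The probe set with the highest mean over 24 arrays stood for each of 18193 genes, and 29 members had several. Limma (version 3.58.1, R 4.3.3) fitted the 8 group means on all 24 arrays, with 16 residual and 3.99 prior degrees of freedom. The two-sided p-values had Benjamini-Hochberg adjustment over all genes within each of 16 contrasts, and a gene was called at an adjusted p under 0.05. The procedure was tested on simulated data. The number of arrays limits the precision. Flagellin and unstimulated arrays of one number deviated together, with every correlation over 0.1, in CB-R1 and C3Bir and not in the other strains. That pairing comes from the correlation, not from the labels.

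Values on every array are given for at most 12 called members by smallest adjusted p, the 6 with the largest within-group SD, and the brightest of each of 10 roles. The members, lists and tests were chosen with earlier results of these data known, and the cytokine list was added after the data were seen. Alternatives were a filter on low values, the mean of probe sets, quantile normalization, centring on array medians, a trended and robust variance, the compared arrays alone, replicate blocks, a 2-fold minimum, and leaving out arrays. Promoter windows came from RefSeq (GRCm38.p6).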

Additional observations from a re-analysis of the deposited data

Results flagged for a closer look

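Vcam1, Col4a2 and Lum were singled out because their flagellin change differed between BC-R3 and B6 in the test of that difference. The change in BC-R3 exceeded that in B6 by 2.12 for Vcam1, 0.93 for Col4a2 and 0.53 for Lum on the log2 scale (limma adjusted p = 0.0438, 0.0334 and 0.0430). The flagellin change of Vcam1 was 0.24 in BC-R3 and -1.87 in B6. The Lum values of the BC-R3 unstimulated arrays were under the lower quartile, so the size of its difference is uncertain. All 3 lost the call when B6 unstimulated array 2 or 3, the arrays with the highest cytokine mean, was left out. Over the 24 fits without 1 array the call held in 7 for Vcam1, 9 for Lum and 16 for Col4a2.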

How the results depend on the processing

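Of the 55 calls of a member in a comparison none changed direction under any alternative, and 13 passed in every fit that left out 1 array. Median centring moved no count by over 1.5 times. The counts of called members that moved are given here, mostly with the share of all genes called in brackets. Quantile normalization gave 0 (1.06%) for CB-R1 against C3Bir unstimulated and 1 (6.36%) for the difference of flagellin changes between BC-R3 and B6. A filter on low values, which kept 37 members, gave 3 (1.97%) for CB-R1 against C3Bir unstimulated. The mean of probe sets gave 2 (1.21%) there and 0 (6.71%) for C3Bir against B6 with flagellin. A trended and robust variance gave 12 (29.9%) for BC-R3 against B6 and 7 (16.2%) for C3Bir against B6, both unstimulated. Fitting only the compared arrays gave 0 (0%) for flagellin in B6 and 0 (0%) for the difference of changes between BC-R3 and B6. For C3Bir against B6 it gave 3 (6.07%) unstimulated and 2 (3.66%) with flagellin. It gave 0 (0.0385%) for BC-R3 against B6 unstimulated. For CB-R1 against C3Bir it gave 0 (0.044%) unstimulated and 12 (0.335%) with flagellin. A 2-fold minimum gave 1 (1.66%) for flagellin in B6 and 0 (0.962%) for C3Bir against B6 with flagellin. It gave 10 (2.76%) for BC-R3 against B6 and 0 (0.17%) for CB-R1 against C3Bir, both unstimulated. The difference between BC-R3 and B6, the background and the allele had 1 each (1.59%, 1.06% and 0.0385%). Without array 1 of unstimulated B6, C3Bir and BC-R3, flagellin gave 31 (34.5%) in B6, 2 (6.78%) in C3Bir and 2 (4.97%) in BC-R3. C3Bir against B6 then had 26 (21.6%) unstimulated and 3 (11.2%) with flagellin. BC-R3 against B6 had 31 (41.6%) and CB-R1 against C3Bir 5 (15%), both unstimulated. The differences of changes had 2 (8.22%) for C3Bir and B6, 24 (31.2%) for BC-R3 and B6 and 2 (4.45%) for CB-R1 and C3Bir. The counts were 31 (12.1%) for the allele and 3 (12.4%) for flagellin over the 4 strains. Without arrays 2 and 3 of unstimulated B6 and C3Bir they were 0 for flagellin in B6 and, all unstimulated, 0 for BC-R3 against B6, 1 for C3Bir against B6 and 0 for CB-R1 against C3Bir, 0 for the difference between BC-R3 and B6 and 0 for the allele, and 7 of the 55 calls passed. Apart from fewer arrays in some of these fits, the cause was not tested.

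Leaving out 1 array gave 0 to 26 for flagellin in B6 (5.41% to 31% of all genes) and 0 to 1 in BC-R3 (0% to 1.17%). It gave 0 to 0 in C3Bir (0% to 0.511%) and in CB-R1 (0%). C3Bir against B6 had 4 to 32 unstimulated (8.7% to 23.1%) and 1 to 2 with flagellin (4.31% to 7.82%). In the same order BC-R3 against B6 had 4 to 35 (15.2% to 36.3%) and 0 to 0 (0.0165% to 0.022%). CB-R1 against C3Bir had 0 to 4 (0.033% to 9.71%) and 0 to 0 (0.0275% to 0.407%). The differences of changes, in the order above, had 0 to 1 (0% to 7.55%), 0 to 28 (0.22% to 23.3%) and 0 to 0 (0% to 0.022%). The background had 5 to 10 (24.8% to 29.7%), the allele 0 to 33 (0.231% to 6.5%) and flagellin over the 4 strains 0 to 1 (0% to 9.98%).

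Same-numbered flagellin and unstimulated arrays correlated, as deviations from group means, at 0.30 to 0.50 in CB-R1, 0.31 to 0.48 in C3Bir, -0.54 to 0.31 in BC-R3 and -0.35 to 0.11 in B6. By the limit of 0.1 for every pair, the numbers thus pair the arrays in CB-R1 and C3Bir and not in BC-R3 and B6. Some arrays of unlike number were above the limit too. Flagellin array 3 and unstimulated array 1 of BC-R3 correlated at 0.56, and flagellin array 2 and unstimulated array 3 of C3Bir at 0.23. Whether BC-R3 and B6 arrays pair under other numbers was not tested. A replicate block on the pairs of CB-R1 and C3Bir, added after seeing the data, called no member and 0% of all genes for the flagellin change in either strain or their difference, with 3 members in CB-R1, 8 in C3Bir and 7 for the difference at an unadjusted p under 0.05. A replicate block within strain (consensus correlation 0.09) gave 3 calls for the allele (0.572% of all genes). Number as a fixed replicate block gave 10 there (1.78%) and 2 for CB-R1 against C3Bir unstimulated (2.24%). No other count moved by over 1.5 times under these blocks.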
